A study of Mus musculus with 2 samples.

Results

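Hox genes, which encode homeodomain transcription factors, were measured in single cells from the fat around the mouse aorta (perivascular adipose tissue, PVAT). Members were the features named Hox, a letter from a to d and a number. The rule found 40 of 31053 features, with 39 symbols, because Hoxd4 is listed under 2 gene identifiers. The feature table holds 11 members of the HoxA cluster, 10 of HoxB, 9 of HoxC and 10 of HoxD. Stromal cells of WT mice labelled young or old had been freed from dissected PVAT with 0.2% collagenase for 45 min at 37°C, and 1 droplet library was made per age with a 10x 3′ kit. The labels leave out ages in weeks, sex, strain, the number of mice and any pooling. With 1 library per age, age and library cannot be told apart and no test exists. All intervals below are 95% intervals that cover counting error only.

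Hox genes lie in 4 chromosomal clusters, and their order along the chromosome follows the order in which they are used from head to tail in the embryo. Low paralogue numbers mark anterior and high numbers posterior tissue, and many connective tissue and vessel cells keep a positional pattern into adult life. HOX proteins bind DNA together with the PBX, MEIS and PREP (Pknox) cofactors, and their clusters are opened by retinoic acid and trithorax proteins and silenced by Polycomb complexes.

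In the annotation of the mm10 genome, HoxA lies on chromosome 6 on the minus strand. On the plus strand lie HoxB from chr11:96194316 to 96368256, HoxC from chr15:102921103 to 103036852 and HoxD from chr2:74668310 to 74765142. Among the members, 39 were found there, and 6 share exons with another counted gene on the same strand, so that their reads may be split. These are Hoxa2 and Hoxa3 with Gm28308, Hoxc5 with Hoxc10, and Hoxd3 with Hoxd4.

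Hoxd10, Hoxd9 and Hoxd8, neighbours in HoxD, were all higher in old endothelial than in mesenchymal barcodes, Hoxd10 and Hoxd9 by the largest ratios of any member in that comparison. The 200 bases that end 51 bases before each RefSeq start (GRCm38.p6, plus strand) are shown to let these neighbours be compared, with CpG pairs in capitals.
Hoxd10: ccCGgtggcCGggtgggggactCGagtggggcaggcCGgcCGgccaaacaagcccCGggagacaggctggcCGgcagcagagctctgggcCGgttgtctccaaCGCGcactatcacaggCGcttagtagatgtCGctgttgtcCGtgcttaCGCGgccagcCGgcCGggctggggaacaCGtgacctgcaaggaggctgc
Hoxd9: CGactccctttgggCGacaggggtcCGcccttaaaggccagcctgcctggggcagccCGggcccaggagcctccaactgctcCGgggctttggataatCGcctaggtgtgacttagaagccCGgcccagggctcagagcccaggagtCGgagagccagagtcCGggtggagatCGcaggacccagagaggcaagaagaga
Hoxd8: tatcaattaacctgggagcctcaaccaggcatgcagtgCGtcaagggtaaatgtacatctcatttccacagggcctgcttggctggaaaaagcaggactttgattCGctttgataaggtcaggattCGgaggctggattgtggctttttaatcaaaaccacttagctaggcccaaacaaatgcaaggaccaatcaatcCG
They lie at chr2:74691641-74691840, chr2:74697513-74697712 and chr2:74704365-74704564. CpG pairs numbered 18, 10 and 4, and G and C made up 69.5%, 65.5% and 46.5% of the bases, so the windows thin out in CpG from Hoxd10 to Hoxd8. The Hoxd9 window overlaps an exon of the antisense gene Gm28793. On both strands, 4 motifs were searched: TGATNNAT (bound by PBX with HOX), CCGGAA (the core of ETS sites, used by endothelial factors), TAATTA (the homeodomain core) and AATAAA (the core of caudal sites). Of 32851 RefSeq windows of the same length these letters stood in 6.44%, 8.03%, 4.19% and 15.3%, and in none of the 3 HoxD windows. RefSeq windows were matched for 22 of the 39 symbols.

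The young library held 13104 barcodes and 130398999 UMIs (unique molecular identifiers, 1 per captured transcript) and the old 14636 barcodes and 147166475 UMIs. After filtering, 11453 and 12207 barcodes remained with medians of 8916 and 9222 UMIs, and 275 barcode sequences occurred in both libraries as deposited. More deposited barcodes exceeded 10% mitochondrial UMIs in the old library (5.78%) than in the young (1.83%). Barcodes were gated on at least 4 of 8 markers of a lineage and are named after the gate, for example endothelial-like for Pecam1, Cdh5 and 6 others, shortened below to endothelial. Mesenchymal barcodes passed no other gate and held at least 4 of 8 fibroblast genes such as Col1a1 and Pdgfra.

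Mesenchymal barcodes numbered 9663 (young) and 10154 (old), mesothelial (lining cells) 208 and 31, Schwann (glia) 39 and 68, and endothelial (vessel lining) 32 and 1069. Macrophages (93 in the old library) served as a blood-derived class for comparison. Whether their Hox UMIs are free RNA, RNA of other cells or their own was not tested. Genes of the gate lists, such as Msln, Foxd3 and Emcn, stood among the leading genes of their classes in both libraries, which the gates themselves bring about. Leading genes outside these lists in both libraries were Krt7 in mesothelial, Mal and Insc in Schwann and Tmem252 in endothelial barcodes, among others. Mesenchymal marker genes made up 0.673% and 0.557% of UMIs in young and old mesenchymal barcodes, 0.0685% and 0.116% in endothelial, 0.275% and 0.312% in Schwann and 0.462% and 0.375% in mesothelial barcodes. Level is given as CPM, the UMIs of a gene scaled to the same total of UMIs in every class. UMIs are counted at transcript 3′ ends and are not scaled by length, so levels are compared between classes and not between genes.

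**Figure D1:**
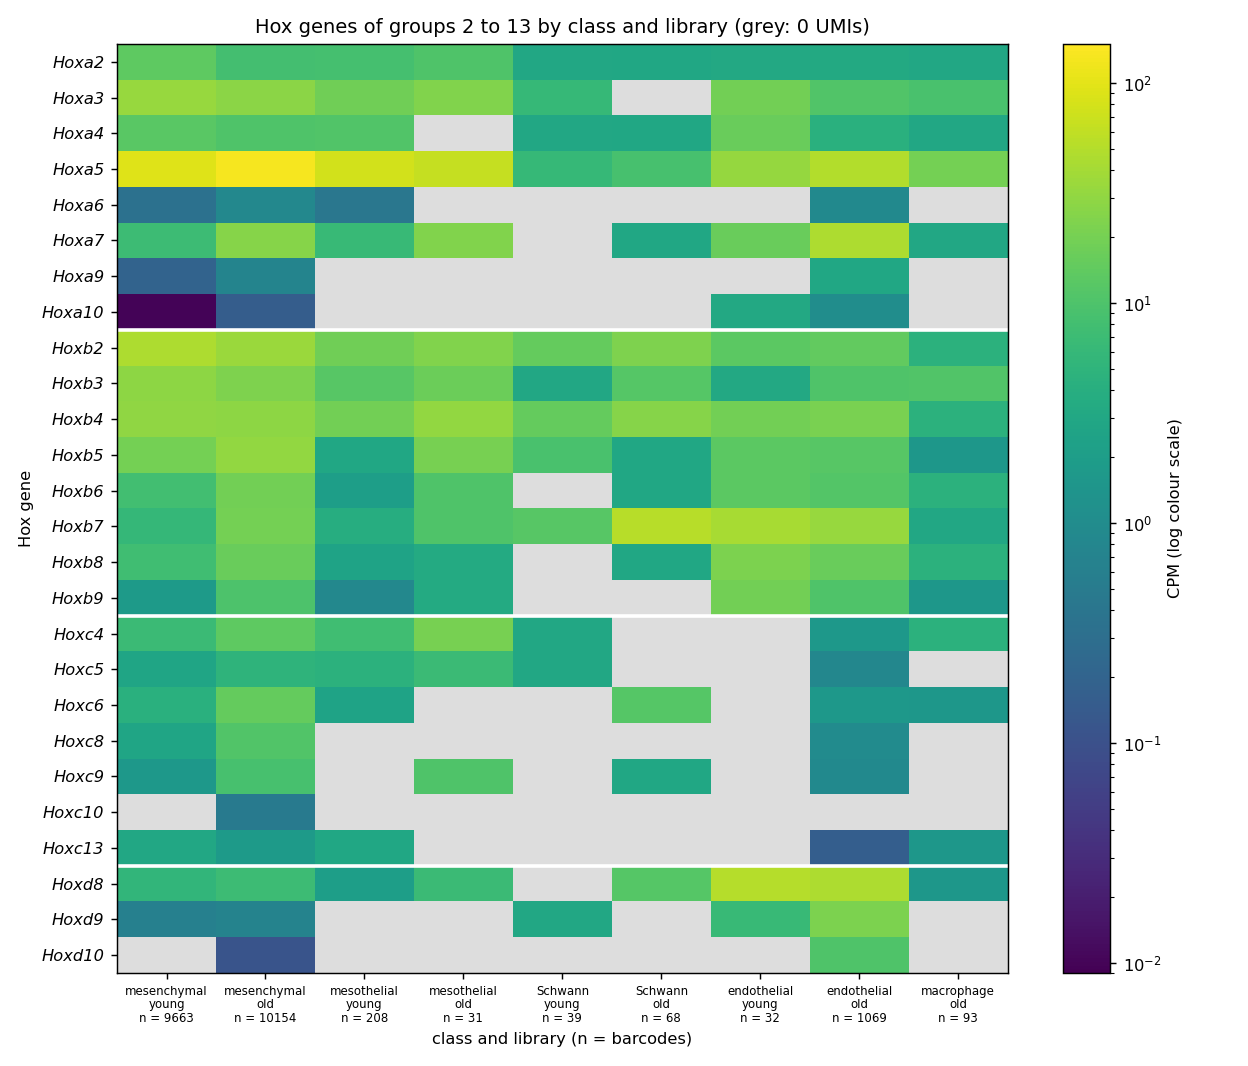
Level (CPM, log colour scale) of each Hox gene of groups 2 to 13 with enough UMIs in each class and library, with n the number of barcodes and grey for 0 UMIs; white lines part the 4 clusters. HoxC genes had 0 UMIs in the young endothelial column and 6.08 CPM in sum in the old one, while Hoxd8 reached 51.2 and 45.5 CPM. Schwann columns are grey or dark for most HoxA genes.

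In mesenchymal barcodes the old library held less RNA of the anterior Hox genes and more of the central and posterior ones. Of the 40 features, 25 reached 20 UMIs over both libraries in these barcodes, 11 had 1 to 19 and 4 had 0. Of the 25, 14 were higher in old barcodes by at least 1.5-fold and 3 were lower by as much, among them Hoxa2 and Hoxc13. The 14 include Hoxc10, which had 0 young UMIs and reached 20 UMIs only through the old library, so its direction was set beforehand. Over all 15175 genes tested, 19.3% were higher and 12.4% lower by the same rule. The median log2(old/young) was 0.89 over the 25 members and 0.12 over all genes. Scaling by median-of-ratios size factors, which sets that common shift to 0, left 13 higher and 3 lower.

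Summed over groups 1 to 3, young barcodes held 124.9 CPM and old barcodes 95.1 CPM. For groups 4 to 8 the sums were 205.6 and 332.4 CPM, and for groups 9 to 13 they were 7.26 and 23.2 CPM. The log2 ratio therefore went from -0.39 (interval -0.43 to -0.36) over 0.69 (0.67 to 0.72) to 1.68 (1.56 to 1.80) from anterior to posterior. Hoxc13, which is known from hair follicles and nails, went the other way, and without it the posterior ratio was 2.33. By cluster, HoxC stood out with 21.1 and 55.6 CPM (log2 ratio 1.40), against 0.33 for HoxA, 0.30 for HoxB and 0.39 for HoxD. Mesenchymal barcodes include small clusters led by Lrrn4 and Upk3b (186 young, 82 old) or by Sox2 and Insc (34 young, 41 old), and the posterior ratio without these clusters was 1.67.

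Among anterior genes, Hoxa2, a neural crest patterning gene, had a young level of 13.3 CPM and an old level of 8.14 CPM (log2 ratio -0.71). Hoxa3 (32.9 and 27.8 CPM), Hoxb2 (46.2 and 34.4 CPM) and Hoxb3 (28.5 and 22.8 CPM) were also lower in the old library, by less than 1.5-fold. These 4 anterior genes thus had their lower level in the old library, with intervals of the ratio that left out 0.

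Paralogue group 4 parted by cluster. Hoxa4 (12.5 young, 10.2 old CPM) and Hoxb4 (29.8 and 28.4 CPM) were near equal or lower in the old library, and Hoxc4 was higher (6.78 and 13.5 CPM, log2 ratio 0.99). Hoxa5, which is needed for the lung and airway and is abundant in adult fat depots, stood at 92.9 and 129.7 CPM (0.48). Hoxb5 (19.8 and 31.1 CPM, 0.65) and Hoxc5 (2.73 and 5.07 CPM, 0.89) were further apart. Within group 5 the interval of Hoxa5 (0.44 to 0.52) did not meet that of Hoxb5 (0.57 to 0.73), while those of Hoxb5 and Hoxc5 (0.68 to 1.11) did.

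From group 6 on, each HoxA, HoxB and HoxC gene up to group 10 with enough UMIs was more than 1.5-fold higher in old barcodes. Hoxa6 stood at 0.339 and 0.832 CPM (log2 ratio 1.30), Hoxb6 at 7.90 and 19.1 CPM (1.27) and Hoxc6 at 4.26 and 15.1 CPM (1.82). In group 7, which patterns the thorax, Hoxb7 stood at 5.76 and 19.6 CPM (1.76) and Hoxa7 had a ratio of 1.87. Hoxb8 (7.70 and 16.5 CPM, 1.10) lay below the group 7 genes of its own cluster. Among genes with at least 20 UMIs and some in both libraries, the largest ratios were those of Hoxb9 (1.79 and 10.1 CPM, interval 2.27 to 2.73) and Hoxc9 (2.26 to 2.75), which pattern the ribs.

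Hoxa9 was sparse, at 0.199 and 0.712 CPM (20 and 77 UMIs, log2 ratio 1.84). Hoxc10, a gene of the lumbar region and hindlimb, had 0 young and 52 old UMIs. With the 0 set to 3 UMIs it was 16.1-fold higher in the old library, which is not a lower bound. Hoxa10 had 1 and 17 UMIs, and Hoxd10 0 and 12, both under the minimum of 20 used for counts. Hoxd8 and Hoxd9 did not share the step: Hoxd8 stood at 5.31 and 6.95 CPM (0.39) and Hoxd9 at 0.618 and 0.703 CPM (0.19, interval -0.32 to 0.69). Hoxd9 was thus indistinguishable between libraries within counting error, and its interval lies below those of Hoxa9, Hoxb9 and Hoxc9.

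**Figure D2:**
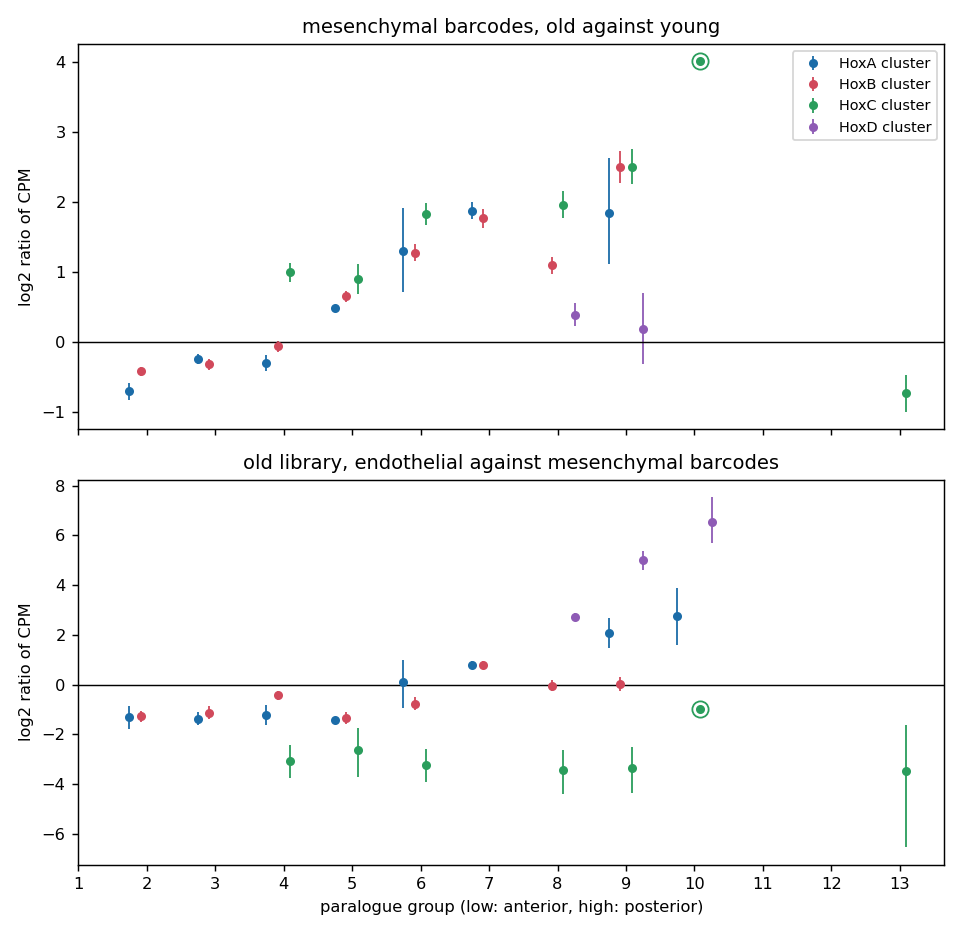
Log2 ratio of CPM (bars: 95% counting interval) of each Hox gene of groups 2 to 13 by paralogue group and cluster. The upper panel shows old against young mesenchymal barcodes, and the lower endothelial against mesenchymal barcodes of the old library. A ring marks Hoxc10, where 1 group had 0 UMIs and was set to 3. Above, apart from Hoxc10 and Hoxc13, ratios of HoxA, HoxB and HoxC genes broadly rise from -0.71 for Hoxa2 to 2.50 for Hoxb9 and Hoxc9. Hoxc13 goes the other way, below 0, and Hoxd8 and Hoxd9 lie below the other genes of their paralogue groups. Below, HoxC genes lie between -2.64 and -3.48 apart from Hoxc10, and HoxD genes between 2.71 and 6.55.

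The share of mesenchymal barcodes with a UMI gave the same order. Thinned to 2000 UMIs each, 1.36% (interval 1.14 to 1.62) of 9602 young barcodes and 4.41% (4.01 to 4.82) of 10100 old barcodes held a UMI of groups 9 to 13, and unthinned shares were 6.10% and 17.5%. The 61 and 54 shallower barcodes were left out of the thinned shares. For groups 4 to 8 the thinned shares were 32.1% and 47.5%. In macrophages, median depth was 6183 UMIs against 9475.5 in old mesenchymal barcodes. After thinning, 0 of 93 macrophages held a posterior UMI (interval up to 3.89%), and 2.15% did unthinned. The old mesenchymal share lies above that limit. The young library held 1 macrophage, so it has no such comparison.

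Macrophages of the old library held 27.6, 52.1 and 3.07 CPM of groups 1 to 3, 4 to 8 and 9 to 13, below the old mesenchymal values in each group. Of 25 members tested, 15 were lower and 0 higher there than in mesenchymal barcodes, with 11.5% of all genes higher and 19.3% lower. Here and in the other comparisons of classes a gene is called when it differs by at least 1.5-fold and the interval of the log2 ratio leaves out 0.

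Mesenchymal subtypes were gated on at least 3 of 8 markers each. The Tbx20-Tcf21 subtype needed a UMI of both genes, which encode factors known from the epicardium and heart. Only a barcode that passed a single gate was given a subtype. The subtype values thus leave out 2686 young and 2849 old barcodes that passed no gate. Also left out are 3311 young and 3497 old barcodes that passed several, with median depths of 12262 and 12633 UMIs. In the young library, groups 4 to 8 stood at 76.4 CPM (interval 57.7 to 99.2) in 76 Tbx20-Tcf21 barcodes and between 166.4 CPM (219 Itga8-Nrn1 barcodes) and 259.1 CPM (790 cycling barcodes) in the other subtypes with 50 or more. Old values were 147.7 CPM (114.7 to 187.2) in 43 Tbx20-Tcf21 barcodes and 303.6 to 384.4 CPM in Cthrc1-Wisp1, contractile, progenitor, cycling and adipogenic barcodes. The Tbx20-Tcf21 barcodes were therefore lowest in central Hox genes in both libraries. Their young Hoxa5 level was 28.7 CPM and the old 54.3 CPM, against 77.3 CPM or more in each other young subtype with 50 barcodes.

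Posterior Hox genes were unevenly spread over young subtypes. Adipogenic barcodes, marked by Pparg and Lpl, held 9.41 CPM of groups 9 to 13 (33 UMIs), Cthrc1-Wisp1 8.44, contractile 7.19, cycling 4.43, Itga8-Nrn1 1.89 (4 UMIs) and Tbx20-Tcf21 1.36 CPM (1 UMI). The ratio of highest to lowest was 6.89, with an interval of 1.15 to 280 that reflects the single UMI. In the old library adipogenic barcodes were again highest at 32.4 CPM, followed by cycling 28.3, progenitor 25.01, Cthrc1-Wisp1 19.3 and contractile 16.99 CPM, a ratio of 1.91 (1.33 to 2.81). Each subtype with 50 or more barcodes in both libraries had a higher posterior level in the old library, cycling barcodes by the widest margin.

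Clustering the mesenchymal barcodes with all Hox genes left out of the variable genes gave groups that used no gate. Young clusters 7 (231 barcodes) and 10 (725), both led by Tbx20, Gata4, Fndc1 and Hand2, held 75.4 and 71.6 CPM of groups 4 to 8. Their Hoxa5 level was 34.9 and 33.4 CPM, and posterior genes stood at 0 (up to 1.08) and 1.95 CPM. Low posterior levels also marked young clusters 3 and 4, both led by Nrn1 (1307 and 815 barcodes), with 2.38 and 1.33 CPM, although their central genes stood at 164.0 and 231.4 CPM. A sparse posterior signal thus came with low central genes in the Tbx20-led pair, while central genes were higher in both Nrn1-led clusters. Of these, cluster 3 still lay below the 205.6 CPM of all young mesenchymal barcodes, and cluster 4 lay above it. Young cluster 16 (122 barcodes, with S100a4 among its leading genes) was also low in central and posterior genes, at 64.1 and 1.42 CPM (1 posterior UMI). Its median depth of 4887.5 UMIs was below that of the other clusters named here.

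The old cluster led by Tbx20 (cluster 10, 793 barcodes) had higher Hox levels than the young clusters led by Tbx20. Its leading genes were Tbx20, Serpina3n, Mmp3, Fmo1, Ucp2 and Fndc1, without Gata4 or Hand2. Whether it holds the same kind of cell as the young clusters was not tested. It held 302.7 CPM of groups 4 to 8, 14.8 CPM of groups 9 to 13 and 140.2 CPM of Hoxa5, all inside the range of the other old clusters. At the other end, old cluster 9 (1483 barcodes, led by Rgcc, Stc1 and Il1rn) reached 38.3 CPM of groups 9 to 13, and young cluster 5 (654 barcodes), which shares the leading gene Il1rn, reached 14.5 CPM, the highest young value. Median depth was 6450 UMIs in old cluster 9 and 8671 in old cluster 10, and the part of depth in these values was not tested.

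**Figure D3:**
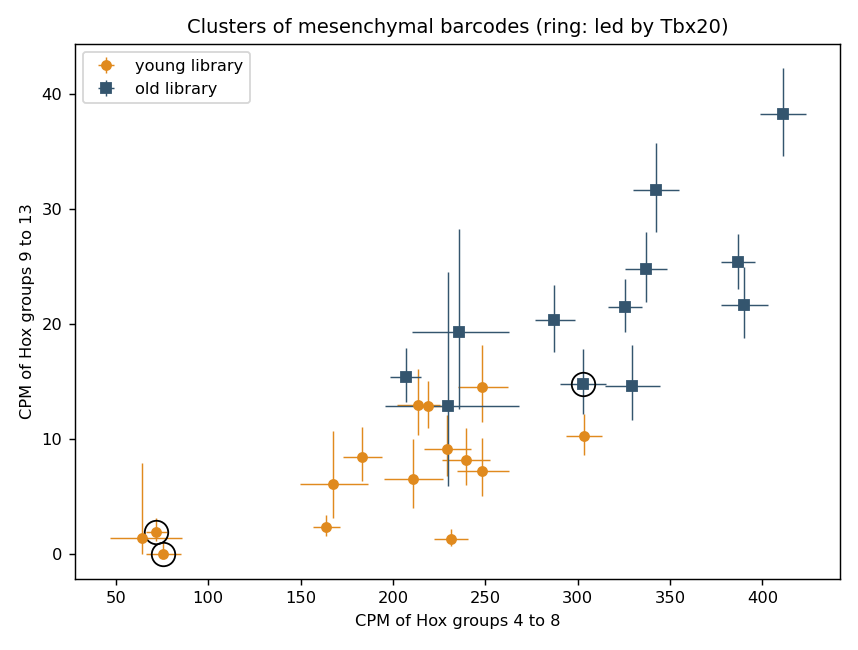
CPM of Hox groups 9 to 13 against CPM of groups 4 to 8 in each cluster of at least 50 mesenchymal barcodes, with 95% counting intervals; circles are young, squares old, and rings mark clusters led by Tbx20. The 2 ringed young clusters lie at the lower left (75.4 and 71.6 CPM on the x axis) beside cluster 16 (64.1 CPM), and the ringed old cluster lies among the other old clusters at 302.7 CPM.

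Splitting on Tbx20 alone gave a larger set. In the young library 850 mesenchymal barcodes held a Tbx20 UMI and 8813 did not, with median depths of 12170 and 9162 UMIs. Hoxa5 stood at 44.9 CPM with and 99.1 CPM without Tbx20 (log2 ratio -1.14), and Hoxb6, Hoxb7 and Hoxb8 together at 7.59 and 23.2 CPM (-1.61). Hoxc8 and Hoxc9 were further apart at 1.03 and 4.76 CPM (-2.20), and Hoxb9 at 0.259 and 1.99 CPM (-2.95). Hoxd8 (-0.69, interval -1.19 to -0.22) lay closer to 0 than the sum of Hoxb6, Hoxb7 and Hoxb8 (-1.93 to -1.30). The deficit was thus not ordered by paralogue group alone. The interval of Hoxd8 met that of Hoxa5 (-1.27 to -1.01), so these were not told apart. Hoxc13 stood at -1.93 (-3.01 to -1.03), which met the interval of Hoxb9 (-5.24 to -1.38). In the old library the same ratios were -0.53 for Hoxa5, -1.54 for Hoxc8 with Hoxc9 and -0.96 for Hoxb9. Hoxa7 differed little there (-0.16).

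Transcripts of groups 7 to 9 from HoxA, HoxB and HoxC tended to occur in the same barcodes. Hoxb9 was detected in 130 young mesenchymal barcodes (median 11523 UMIs) and missing in 9533 (median 9302). Barcodes with Hoxb9 held 44.2 CPM of Hoxc8 and Hoxc9, against 3.65 CPM in those without (log2 ratio 3.60, 12.1-fold), although these genes lie on another chromosome. Hoxa7 and Hoxa9 showed the same with 50.7 and 6.496 CPM (7.80-fold). Ratios were smaller but above 0 for Hoxb6, Hoxb7 and Hoxb8 together (1.77), for Hoxc4, Hoxc5 and Hoxc6 (2.82-fold, interval of the log2 ratio 1.11 to 1.86) and for Hoxb2 with Hoxb3 (0.35, 0.12 to 0.58). The intervals held 0 for groups 1 to 3 of HoxA (0.16), Hoxa5 (0.17), Hoxd8 (0.15) and Hoxc13 (-0.03). Summed mesenchymal markers differed by -0.06 between the same barcodes, and the part of their depth was not tested.

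In the old library 822 barcodes held Hoxb9, and the contrast was smaller. Hoxc8 with Hoxc9 stood at 40.1 CPM with and 17.5 CPM without Hoxb9 (2.29-fold), and Hoxa7 with Hoxa9 at 48.2 and 24.3 CPM. For these genes, levels in barcodes with Hoxb9 were near equal in the libraries, and levels without it were higher in the old one. The number of barcodes with Hoxb9 differed too. How far a missing Hoxb9 UMI reflects depth was not tested. Hoxc10 was found in 47 old barcodes, which held 160.6 CPM of Hoxc8 and Hoxc9 against 18.8 CPM in the others. Hoxc13 was found in 272 young and 189 old barcodes, and Hoxa7 with Hoxa9 stood at 7.62 and 23.7 CPM there, against 7.23 and 26.6 CPM in barcodes without it. Young barcodes with Hoxc13 held more of Hoxc8 with Hoxc9 (log2 ratio 0.72, interval 0.03 to 1.34), Hoxd8 (0.78, 0.17 to 1.32) and Hoxd9 (2.19, 0.91 to 3.27), and the old intervals of these 3 held 0.

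**Figure D4:**
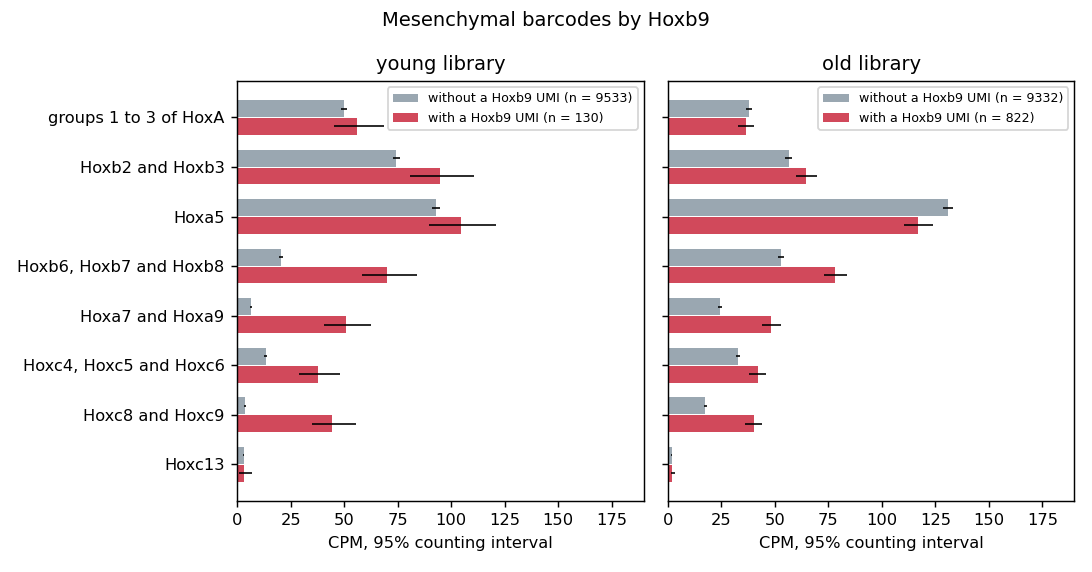
CPM (bars, with 95% counting intervals) of Hox genes in mesenchymal barcodes with and without a Hoxb9 UMI in each library. In the young library Hoxc8 with Hoxc9 stands at 44.2 CPM in barcodes with Hoxb9 and 3.65 CPM in those without, while the bars of Hoxa5 and Hoxc13 differ little.

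Endothelial barcodes carried a Hox pattern unlike that of mesenchymal barcodes, rich in HoxD and poor in HoxC. In the old library HoxD stood at 78.9 CPM in endothelial and 7.81 CPM in mesenchymal barcodes (log2 ratio 3.34), and HoxC at 6.08 and 55.6 CPM (-3.19). HoxD made up 23.5% and HoxC 1.81% of the 4137 endothelial Hox UMIs, against 1.73% and 12.3% of the mesenchymal ones. The 32 young endothelial barcodes gave the same pattern, with 57.6 and 5.97 CPM of HoxD (3.27) and 0 UMIs of HoxC (interval up to 11.8 CPM) against 21.1 CPM. Endothelial HoxC in the old library lay within the interval of the macrophage level (7.67 CPM, 2.49 to 17.9), and its source was not tested.

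Of 27 members tested in the old library, 8 were higher and 15 lower in endothelial barcodes. Over 14424 genes, 14.2% were higher and 24.2% lower. By 1.5-fold alone, with the interval not asked for, the counts were again 8 and 15, against 15.7% and 29% of genes. The median log2 ratio was -0.98 over the members and -0.12 over all genes. Among the higher were Hoxa7, Hoxa9, Hoxa10, Hoxb7, Hoxd8, Hoxd9 and Hoxd10, which belong to groups 7 to 10. Of these, Hoxd10 (128 endothelial and 12 mesenchymal UMIs) and Hoxa10 (13 and 17) reached the UMI minimum only with their endothelial UMIs added. The minimum itself thus favoured a higher endothelial level for Hoxd10 and Hoxa10, and their direction in the count is not independent of it. By group sums, endothelial and mesenchymal barcodes held 43.0 and 95.1 CPM of groups 1 to 3, 244.3 and 332.4 CPM of groups 4 to 8 and 48.2 and 23.2 CPM of groups 9 to 13 (log2 ratios -1.15, -0.44 and 1.05).

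Hoxd10, a gene known to hold vessels in a resting state, had 128 UMIs in endothelial barcodes (10.4 CPM) and 12 in the more numerous mesenchymal ones (0.111 CPM), a log2 ratio of 6.55 (interval 5.69 to 7.54). Hoxd9 stood at 22.3 and 0.703 CPM (4.99, 31.7-fold) and Hoxd8, which is expressed in lymphatic vessels, at 45.5 and 6.95 CPM (2.71, 6.54-fold). The ratio thus grew from Hoxd8 to Hoxd10, neighbours on the chromosome, and their intervals did not meet. Hoxa10 (1.05 and 0.157 CPM, 2.75) and Hoxa9 (3.00018 and 0.712 CPM, 2.08) were also higher, and the interval of Hoxa10 (1.58 to 3.87) holds the ratio of Hoxd8. Hoxa7 (44.9 and 25.8 CPM) and Hoxb7 (34.1 and 19.6 CPM) both had a ratio of 0.80.

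Levels of Hoxb8 (16.0 and 16.5 CPM) and Hoxb9 (10.4 and 10.1 CPM) were indistinguishable between the classes within counting error. Hoxa5 was lower in endothelial barcodes at 48.4 CPM (-1.42), as were Hoxa2, Hoxa3, Hoxa4, Hoxb2, Hoxb3 and Hoxb5 with ratios between -1.12 and -1.37. HoxC genes were the lowest: Hoxc8 (0.973 and 10.6 CPM), Hoxc9 (0.892 and 9.01 CPM) and Hoxc13 (0.162 and 1.81 CPM) had ratios of -3.45, -3.34 and -3.48. Hoxc10 had 0 endothelial UMIs, 1.98-fold lower with the 0 set to 3 UMIs. Groups 8 and 9 were thus split by cluster, with HoxB genes near and HoxD genes above mesenchymal levels and HoxC genes below them.

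Young endothelial barcodes were few, so fewer calls were possible. Of 24 members tested 5 were higher (Hoxb7, Hoxb8, Hoxb9, Hoxd8 and Hoxd9) and 3 lower (Hoxa5, Hoxb2 and Hoxb3), with 10.2% of all genes higher and 5.98% lower, and 9 had too few UMIs for a ratio. By 1.5-fold alone 7 were higher and 7 lower, against 23.4% and 16% of genes. Hoxd8 stood at 51.2 CPM against 5.31 in young mesenchymal barcodes (16 UMIs, log2 ratio 3.27), Hoxb7 at 41.6 against 5.76 (13 UMIs, 2.85) and Hoxb9 at 19.2 against 1.79 (6 UMIs, 3.42). Hoxd9 rested on 2 UMIs and Hoxb3 on 1. Called in the same direction in both libraries were Hoxb7, Hoxd8 and Hoxd9 as higher and Hoxa5, Hoxb2 and Hoxb3 as lower.

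Between ages the endothelial log2 ratios of the 3 groups lay nearer 0 than the mesenchymal ones, but rested on 32 young barcodes. Of 20 members tested, Hoxa7 was higher in the old library (16.0 and 44.9 CPM young and old, 5 and 554 UMIs) and Hoxa4 lower (16.0 and 4.38 CPM), with 3.06% of genes higher and 4.89% lower. The log2 ratios of the 3 groups were 0.16 (-0.65 to 1.12), 0.13 (-0.22 to 0.49) and 0.74 (-0.19 to 1.88), each with an interval that holds 0. The intervals of groups 1 to 3 and 9 to 13 also hold the mesenchymal ratios of -0.39 and 1.68. That of groups 4 to 8 leaves out the mesenchymal 0.69. Whether the endothelial ratios differ from the mesenchymal ones was not tested.

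After thinning, 12.3% of 1060 old endothelial and 1.70% of old mesenchymal barcodes held a HoxD UMI, and 1.04% and 10.2% a HoxC UMI. Macrophages held either in 0 of 93. Unthinned shares were 44.2% for HoxD and 5.43% for HoxC in endothelial barcodes (median 10756 UMIs) and 1.08% and 4.30% in macrophages, so the HoxC share was not distinguishable from that of macrophages at this depth. Hoxd9 or Hoxd10 was found in 5.38% of endothelial and 0.188% of mesenchymal barcodes.

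Within the endothelial gate of the old library, Hoxd9 and Hoxd10 followed the markers of lymphatic vessels (Prox1, Lyve1, Flt4 and 5 others). Barcodes with 0 such markers numbered 488, with 1 marker 350, with 2 or 3 markers 231, and 15 passed both gates and stood outside the class. Hoxd10 stood at 1.92, 6.37, 30.4 and 56.2 CPM in these 4 sets and Hoxd9 at 8.05, 21.1, 48.5 and 90.8 CPM. Prox1, the factor that specifies lymphatic fate and 1 of the 8 markers that define the sets, stood at 0, 7.59, 107.6 and 285.4 CPM, so both Hox genes climbed along with it.

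From 0 to 2 or 3 lymphatic markers the log2 ratio was 3.99 (interval 3.04 to 5.09) for Hoxd10 and 2.59 (2.09 to 3.12) for Hoxd9. Hoxd8 had 39.3, 43.3, 59.1 and 108.1 CPM in the 4 sets, a ratio of 0.59. Hoxa5 went the other way with 60.4, 48.7, 27.4 and 12.97 CPM (-1.14), as did Hoxb9 with 14.4, 10.3, 3.63 and 0 CPM (-1.98), where the 0 in 15 barcodes has an interval up to 15.95 CPM. Hoxa7 and Hoxb7 moved by 0.39 and 0.41. Lymphatic markers thus went with more Hoxd9 and Hoxd10 and less Hoxa5 and Hoxb9.

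Median depth was 9988.5, 10846, 12330 and 15293 UMIs in the 4 sets, and summed mesenchymal markers stood at 1027, 1133, 1437 and 1440 CPM. Mesenchymal barcodes themselves held only 0.703 CPM of Hoxd9 and 0.111 CPM of Hoxd10, and the part of depth was not tested. Without any barcode that holds a lymphatic marker, the endothelial to mesenchymal log2 ratio was 4.11 for Hoxd10, 3.52 for Hoxd9 and 2.50 for Hoxd8, and that of groups 9 to 13 was 0.33 in place of 1.05. In the young library the sets held 20, 8 and 4 barcodes, and both Hoxd9 UMIs lay among the 4 with 2 or 3 markers.

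**Figure D5:**
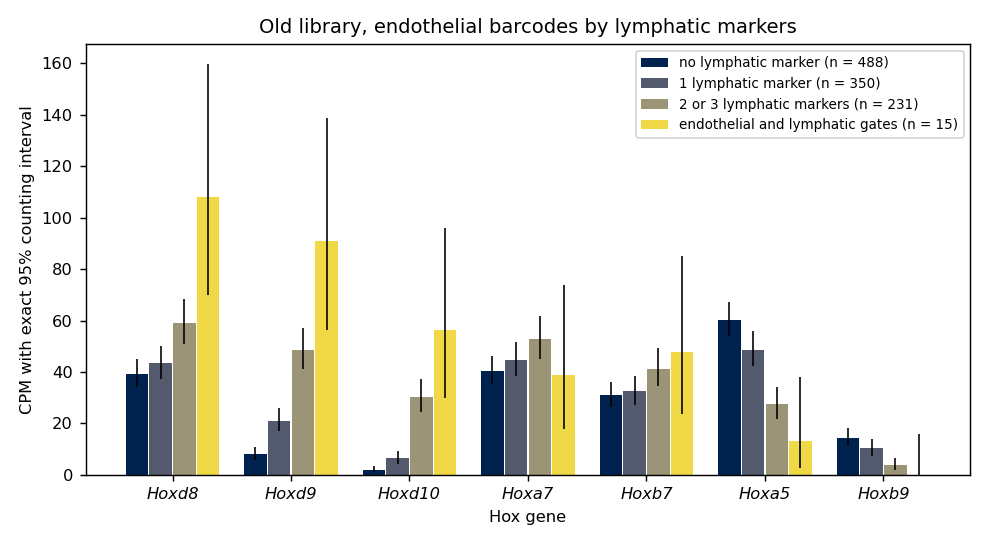
CPM (bars, with 95% counting intervals) of 7 Hox genes in endothelial barcodes of the old library by the number of lymphatic markers detected, with the 15 barcodes that passed both gates as the last bar. Hoxd9 climbs from 8.05 to 90.8 CPM and Hoxd10 from 1.92 to 56.2 CPM, while Hoxa5 goes from 60.4 to 12.97 CPM.

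Schwann barcodes held little HoxA RNA and drew most of their Hox UMIs from HoxB. HoxA stood at 18.1 CPM in young and 17.4 CPM in old Schwann barcodes (6 UMIs each), against 163.2 and 205.2 CPM in mesenchymal ones (log2 ratios -3.17 and -3.56). HoxB gave 66.7% of 27 young and 73.7% of 57 old Hox UMIs. HoxA in Schwann barcodes lay below the macrophage level of 38.3 CPM, and groups 9 to 13 had 1 UMI in each library, so neither was above the level in macrophages.

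Hoxa5 stood at 6.03 CPM in young and 8.71 CPM in old Schwann barcodes (2 and 3 UMIs), with log2 ratios of -3.95 and -3.90 to mesenchymal ones. Of 25 members tested in the old library 1 was higher and 7 lower (Hoxa3, Hoxa5, Hoxa7, Hoxb5, Hoxb6, Hoxb8 and Hoxc4), against 11% and 6.35% of all genes, and 7 had no ratio. By 1.5-fold alone these were 2 and 11, against 23.5% and 15.7%. In the young library 0 of 24 were higher and 4 lower (Hoxa3, Hoxa5, Hoxb2 and Hoxb3), against 12.6% and 6.38%, and 12 had no ratio. By 1.5-fold alone these were 2 and 9, against 26.4% and 15.5%. Lower in both libraries were Hoxa3 and Hoxa5.

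Hoxb7 was the higher member, with 18 UMIs (52.2 CPM) in old Schwann barcodes against 19.6 CPM in mesenchymal ones (log2 ratio 1.42, interval 0.66 to 2.08). The young library gave 4 UMIs, 12.1 against 5.76 CPM (1.07, -0.81 to 2.43). Under a stricter gate of 5 markers the old ratio was -0.39 (-3.43 to 1.47), so the call was not kept there. Hoxb4 did not differ beyond counting error (26.1 and 28.4 CPM in the old library). Hoxb7 was also the 1 member tested between ages in Schwann barcodes (2.12 in favour of the old library, with 8.19% of all genes higher and 6.25% lower). It reached the minimum of 20 UMIs mostly through its 18 old ones, so this direction is no independent result.

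Young mesothelial barcodes were lower than mesenchymal ones in HoxB and less so in HoxA. HoxB stood at 61.1 CPM against 147.4 in mesenchymal barcodes (log2 ratio -1.27), HoxA at 129.8 against 163.2 CPM (-0.33), and HoxA made up 61.4% of 502 Hox UMIs. Of 24 members tested, 1 was higher and 10 were lower (Hoxa2, Hoxa3, Hoxb2 to Hoxb6, Hoxb8, Hoxc8 and Hoxd8), against 13.3% and 10.7% of all genes. By 1.5-fold alone 2 were higher and 13 lower, against 19.7% and 16.5%.

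Hoxb5, Hoxb6 and Hoxb8 were the lowest with a ratio, at -2.75 (2.95 against 19.8 CPM), -1.91 (2.11 against 7.90 CPM) and -1.61 (2.53 against 7.70 CPM). The 3 group sums were each lower than in mesenchymal barcodes, with ratios of -0.92, -0.54 and -0.94. Hoxc8 and Hoxc9 had 0 UMIs in these 208 barcodes. The posterior sum of 9 UMIs included 7 of Hoxc13, whose level (2.95 CPM) differed from the mesenchymal 3.01 CPM by less than counting error.

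In the 31 old mesothelial barcodes HoxA (log2 ratio -0.70, interval -1.21 to -0.24) and HoxB (-0.61, -1.13 to -0.13) were lower by similar amounts, so the young contrast between these clusters was not seen there. They gave 1 call, a lower Hoxa5 (64.9 against 129.7 CPM, interval of the log2 ratio -1.73 to -0.35), and 0 higher of 25, against 5.34% and 6.87% of all genes. By 1.5-fold alone 6 were lower and 2 higher, against 16.8% and 20.3%. No member was called in the same direction in both libraries. Hoxb5 stood at 20.5 CPM there (6 UMIs) against 31.1 CPM, so its young deficit was not seen in the old library at this depth. Between ages 10 members were tested and Hoxa7 was higher in the old library (6.32 and 23.9 CPM, 15 and 7 UMIs), with 6.87% of genes higher and 4.63% lower.

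Partners and regulators of Hox genes were counted from 4 lists with 48 genes in all, by the rules used for the Hox genes. Between ages 19.3% of all genes were higher and 12.4% lower in mesenchymal barcodes, against which the counts of this paragraph are to be read. Of 9 cofactor genes, Pbx2 was at least 1.5-fold higher in old than in young mesenchymal barcodes (19.5 and 12.6 CPM, log2 ratio 0.62) and Pknox2 lower (6.85 and 12.3 CPM, -0.85), while Meis2 had a ratio of 0.16. Among 16 chromatin regulators 1 was higher, Kdm6b, a demethylase that removes the Polycomb mark (46.2 and 24.5 CPM, 0.92), and 0 were lower. Of 9 tested inducers and retinoic acid genes 2 were higher and 2 lower. Aldh1a3 (2.97) and Aldh1a2 (1.43), enzymes that make retinoic acid, were higher, while Aldh1a1 (-2.50), another such enzyme, and the degrading enzyme Cyp26a1 (-1.61, 6 old and 17 young UMIs) were lower. Of 4 tested non-coding transcripts at the Hox loci 0 passed, among them Hotairm1 (-0.30) and Hoxb5os (0.38).

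Endothelial barcodes of the old library were lower than mesenchymal ones in 5 of 9 cofactors and in 8 of 8 tested inducers and retinoic acid genes, with 0 higher in either list. Over all genes 14.2% were higher and 24.2% lower in this comparison, and the chromatin count below lies near that share. Meis1, a cofactor of central and posterior HOX proteins, stood at 5.92 and 43.7 CPM (log2 ratio -2.88). Of 16 chromatin regulators 3 were higher and 5 lower, with Cbx7, a Polycomb subunit, at 2.84 and 0.638 CPM (2.15) and Kdm6b at 17.4 and 46.2 CPM (-1.41). Hoxb5os followed its neighbour Hoxb5 in being lower (-2.82). Old Schwann barcodes were lower in 3 of 9 cofactors, among them Meis1 (-2.91) and Meis2 (-1.28), and higher in 1 of 16 chromatin regulators, the Polycomb enzyme gene Ezh2 (1.86). For Schwann barcodes the shares over all genes were 11% higher and 6.35% lower. Young mesothelial barcodes held Meis1 at the mesenchymal level (51.004 and 51.2 CPM), and Hoxb5os was lower there too (-2.80). Their retinoic acid list was mixed, with 3 higher and 4 lower of 9 tested, against 13.3% and 10.7% of all genes. Higher were Aldh1a1 (1.57), Aldh1a2 (1.31) and Cyp26a1 (5.40, 17 UMIs in each class), and lower were Aldh1a3 (-3.08), Cyp26b1 (-1.91), Rarg (-1.10) and Rarb (-3.55, 1 UMI).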

How the data were processed

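Counts were UMIs per gene and barcode in the matrices the authors deposited, made with Cell Ranger 3.0.1 per the file headers and on mm10 per the submitters' processing notes. Other settings were not given in the sources used here. Barcodes under 500 genes or above 10% mitochondrial UMIs were dropped. Scrublet (in scanpy 1.11.5) marked 0 doublets with its automatic threshold, so the highest scores were removed at 0.8% per 1000 cells (1302 young and 1504 old barcodes).

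Barcodes were classed by UMIs of 7 lineage lists (at least 4 of 8 genes) and 8 subtype gates, and those passing more than 1 lineage gate were left out. Such names may differ from the study's own cell types. UMIs were summed per class and library, and exact Poisson, conditional and Clopper-Pearson intervals (scipy 1.17.1) cover counting error only. Genes with at least 20 UMIs over both groups were tested for a fold of 1.5. Shares were computed after thinning each barcode to 2000 UMIs. Mesenchymal barcodes were clustered by Leiden (30 components, 15 neighbours, 2000 variable genes without Hox genes, resolution 1). The calculation was tested on simulated data.

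Hox genes are named where they were called, where they are the largest or smallest by ratio, or where a role or cluster is described. Members, lists and classes were chosen with earlier results of these data known. After their values were seen, 2 rules were added. Between classes a call also needs an interval off 0, and no ratio is given where a 0 set to 3 UMIs would exceed the other group. The Tbx20, Hoxc10, Hoxc13 and lymphatic splits are descriptions. Alternatives covered scaling, gates, filters, group borders and depth. No protein sequences are shown, and single-gene results of 2 genes are not reported here.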

Additional observations from a re-analysis of the deposited data

How the results depend on the processing

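No paired analysis was possible because each age has 1 library. For 18 main results 155 alternatives were computed, of which 129 stayed within counting error or 1.5-fold for counts, 26 moved further and 0 reversed. For 50 single values, 265 of 324 alternatives stayed, 58 moved and 1 reversed, Hoxb7 in old Schwann barcodes with a gate of 5 markers (-0.39). The cause was not tested for any of them.

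The old to young mesenchymal log2 ratio of groups 1 to 3 was -0.52 with size factors, -0.24 with group 4 added, and -0.33 both without cycling barcodes and in barcodes passing no subtype gate. For groups 4 to 8 it was 0.57 with size factors, 0.84 without group 4, 1.04 as a median over members, 0.76 without cycling barcodes and 0.76 with no subtype gate. For groups 9 to 13 it was 1.55 with size factors, 1.31 with group 8 added, 2.17 as a median, 1.44 without cycling barcodes, 1.40 with no subtype gate and 2.33 without Hoxc13. With no UMI minimum 5 members were lower in the old library in place of 3.

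For groups 9 to 13 in the smaller classes, leaving out Hoxc13 gave 4.02 between old and young mesothelial barcodes and -2.34 between young mesothelial and mesenchymal ones. As a median over members the young ratio to mesenchymal barcodes was 2.29 in Schwann and 3.40 in endothelial barcodes. The old Schwann ratio was -0.29 in barcodes below the median share of mesenchymal markers. Without lymphatic markers the endothelial ratio was 0.55 (young) and 0.33 (old), and with a gate of 3 markers the old one was 0.81. The ratio of the highest to the lowest old subtype was 3.18 with a subtype gate of 2 markers and 2.96 over Leiden clusters.

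Calls between classes depended on the rule for low counts. Counts with 1.5-fold alone stand beside each comparison of endothelial, Schwann and mesothelial with mesenchymal barcodes. With every 0 also set to 3 UMIs, higher members numbered 11 in young and 9 in old Schwann, 15 in young endothelial, and 4 in young and 7 in old mesothelial barcodes. Old endothelial barcodes gave 8 and 15 under all 3 rules. Alternatives that leave out Hoxc13, lymphatic markers or the clusters led by Lrrn4 or Sox2, and both looser call rules, were chosen after seeing the data. Settings that left a group with 0 UMIs gave no value. Classes of 31 to 68 barcodes hold 27 to 91 Hox UMIs, so most single genes there are limited by depth.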
